A study of Homo sapiens with 8 samples.

Results

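HLA class I molecules show peptides from inside a cell to T cells, and the 9 genes described here encode their heavy chains, their light chain and the machinery that makes and moves the peptides. They were taken from the table by symbol: HLA-B, HLA-C, HLA-E and HLA-F, B2M, TAP1 and TAP2, and PSMB8 and PSMB9. The genes are 9 of 61228 in a table of raw counts from 8 mRNA libraries of MDA-MB-231, a human breast cancer line, and all 9 were among the 15568 genes tested. In the knockout cells all 9 were higher than in the control cells on plastic and 8 were higher in collagen gels, and the increases of HLA-B and HLA-C were smaller in gels. Of all genes tested 9.6% were higher on plastic and 11.5% in gels. Some of the members' calls depended on single libraries or on the processing.

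The libraries formed 4 groups of 2. Control monolayers received control guide RNAs by nucleofection and grew on plastic. Knockout monolayers received Cas9, a nuclease, and guides to cut ETV1, ETV4 and ETV5, the PEA3 group of ETS transcription factors, and also grew on plastic. Control gels received Cas9 with control guides and knockout gels Cas9 with the ETV guides, and both grew as droplets of collagen I. The control monolayers are the only group whose label names no Cas9. An effect of Cas9 therefore cannot be told apart from the knockout effect in monolayers, from the change from monolayer to gel in control cells, or from the difference between the knockout effects. The knockout effect in gels compares groups that both name it. Gels were digested with collagenase before lysis and monolayers were not, so gel and digestion cannot be told apart either. The labels do not say whether knockout cells were pools or clones, nor whether replicate libraries stand for separate cultures, so p-values measure only the spread between these libraries.

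Levels are in CPM, counts scaled to library size with TMM factors. The sums over marker lists are the exception and use library totals alone. As a check of the knockout, the mean of ETV1 was 202 CPM in control and 143 CPM in knockout monolayers, and 219 against 139 CPM in gels. For ETV4 the means were 85.2 against 62.3 CPM on plastic and 96.7 against 65.0 CPM in gels. ETV5 stood at 115 and 117 CPM in monolayers and at 114 and 116 CPM in gels, so its transcript level gave no check of the knockout. Library totals ran from 15824504 to 23896899 counts and mitochondrially encoded genes took 2.65 to 4.47% of them. The mesenchymal marker VIM lay between 5284 and 7407 CPM. The 7 luminal markers summed to 88.2 to 98.6 CPM in the 8 libraries: ESR1 and PGR had 0 to 2 counts in each and CDH1 1 to 7, while ERBB2 stood at 56.4 to 69.4 CPM and EPCAM at 12.9 to 23.0 CPM. Leukocytes carry much class I, and among 12 leukocyte markers MS4A1 was at 0 in all libraries, CD3E had 0 to 2 counts and PTPRC 4 to 21. The summed level of the 12 markers was 14.5 to 14.7 CPM in control monolayers, 15.8 to 16.7 in knockout monolayers, 12.6 to 14.3 in control gels and 8.32 to 9.77 in knockout gels. The 9 fibroblast markers summed to 19.4 to 19.7, 25 to 25.9, 13.2 to 13.4 and 12.0 to 13.98 CPM in the same order of groups. The 7 endothelial markers, of which CLDN5 was at 0 in all libraries, summed to 167.5 to 174, 170.0 to 172, 199 to 208 and 169 to 173 CPM. The part of these 3 marker sums in the results was not tested.

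A class I molecule is a polymorphic heavy chain paired with beta-2 microglobulin, and the pair reaches the cell surface only with a bound peptide. Proteasomes cut proteins into peptides, and the inducible subunits encoded by PSMB8, PSMB9 and PSMB10 replace PSMB5, PSMB6 and PSMB7 to form the immunoproteasome. The TAP1 and TAP2 dimer pumps peptides into the endoplasmic reticulum, where tapasin and other chaperones load them. Interferons raise the whole set through IRF1 and the class I transactivator NLRC5, which act at conserved elements in front of the genes. Tumours often lower class I and so escape cytotoxic T cells, while HLA-E also restrains natural killer cells.

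The sequences in front of the genes are given first because shared elements there are what textbooks link to joint regulation of the class I genes. RefSeq promoter windows, from 250 bases before to 50 bases after a start on GRCh38.p14, matched 8 of the 9 members, all but HLA-E. TAP1 and PSMB8 each had a pair of windows, and the other 6 members had 1. HLA-B, HLA-C and B2M held matches to an NF-kB consensus, an interferon response core, a CRE half-site and an inverted CCAAT box. Capitals mark letters that match one of these patterns on either strand, and all lines read 5′ to 3′ on the gene's strand.
HLA-B, chr6:31357244-31357364, minus strand: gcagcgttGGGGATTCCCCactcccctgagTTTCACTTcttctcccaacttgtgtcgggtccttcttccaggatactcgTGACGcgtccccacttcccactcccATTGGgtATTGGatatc
HLA-C, chr6:31272157-31272277, minus strand: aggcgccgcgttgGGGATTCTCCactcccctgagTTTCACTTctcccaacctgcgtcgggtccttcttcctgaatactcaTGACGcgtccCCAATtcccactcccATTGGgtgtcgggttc
B2M, chr15:44711352-44711486, plus strand: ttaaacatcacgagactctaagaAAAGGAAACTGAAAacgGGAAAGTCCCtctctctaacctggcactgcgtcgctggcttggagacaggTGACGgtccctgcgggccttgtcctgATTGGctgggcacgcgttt
In HLA-B and HLA-C the NF-kB match, the interferon response core and the CRE half-site followed in the same order. In B2M the interferon response core came before the NF-kB match.

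The interferon response core was searched as AANNGAAA on both strands, with overlapping matches counted. For this and all other patterns the members were counted by gene and the background by window. TAP1 and PSMB8, each with a pair of windows, thus had more room for a match than a single window. It was present for 7 of 8 members, all but PSMB9, and in 22.8% of the 35116 RefSeq windows. A longer form, GAANNGAAA, was searched first: it was present for 4 of 8 members (HLA-B, HLA-C, TAP2 and PSMB8) and in 7.66% of all windows. The shorter form was chosen after the members' sequences had been seen, so its count is a description. The 30 bases around the first match show the members that have no longer stretch above.
HLA-F, chr6:29723267-29723296, plus strand: tctccccagagTTTCTCTTtctctcccaac
TAP1, chr6:32853820-32853849, minus strand: caggcggccgcTTTCGATTTCGCTTtcccc
TAP2, chr6:32838783-32838812, minus strand: cttggctggggAAGCGAAAGCGAAAgctgc
PSMB8, chr6:32844033-32844062, minus strand: cgatctgtggcTTTCGCTTTCACTTcctcc
TAP1, TAP2 and PSMB8 had a pair of overlapping cores, as did B2M, and HLA-F had 1. For TAP1 and PSMB8 the cores lay in 1 window of the pair, and the other window held none. TAP1 and PSMB9 are read in opposite directions from starts 488 bases apart. The TAP1 cores began 134 and 128 bases upstream of the TAP1 start, which is 354 and 360 bases from the PSMB9 start and outside the PSMB9 window.

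Other patterns were searched in the same windows. An NF-kB consensus was in the windows of 4 of 8 members (HLA-B, HLA-C, B2M and TAP1) and in 5.91% of all windows. The CRE half-site TGACG was present for 6 of 8 members against 24.6% of windows, and the inverted CCAAT box ATTGG for 6 of 8 against 34.6%. The PEA3 core AGGAAG, the letters bound by the targeted factors, was present for 4 of 8 members (HLA-C, HLA-F, TAP1 and PSMB8) and in 33.6% of windows, and the longer ETS site CCGGAAG for TAP1 alone and in 10.3%. A match is a run of letters and not a measured site.

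**Figure D1:**
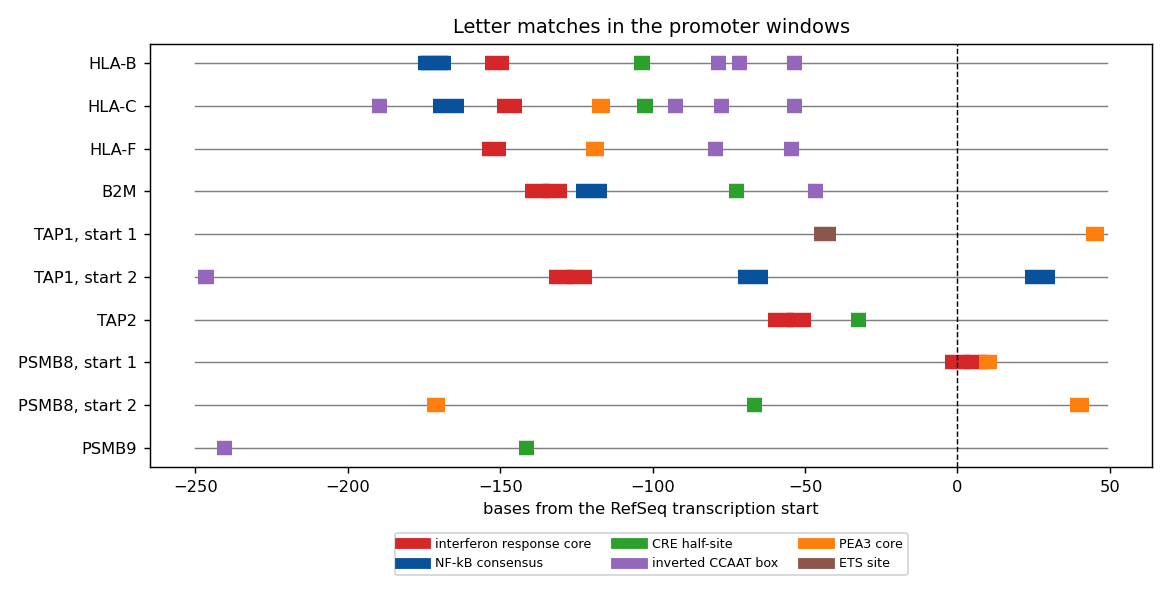
Matches of 6 letter patterns in the RefSeq promoter windows of 8 members, by distance in bases from the transcription start (dashed line); TAP1 and PSMB8 have a pair of starts each. The interferon response core (red) lies upstream of the start in HLA-B, HLA-C, HLA-F, B2M, TAP1 (start 2) and TAP2, and across start 1 in PSMB8. It is not in the windows of TAP1 start 1, PSMB8 start 2 and PSMB9.

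All members but B2M lie in the HLA region of chromosome 6, HLA-F at 29723434 to 29738532, HLA-E at 30489509 to 30494194, PSMB8 at 32840717 to 32844679 and PSMB9 at 32854192 to 32859851 (GRCh38.p14). In control monolayers the members differed widely in level. Levels per kb of exon allow a rough comparison of genes. The lengths merge the annotated exons of a gene, and the transcripts present and the handling of reads with several matches are not known. B2M had the highest mean at 150 CPM per kb, followed by HLA-C at 112, HLA-B at 99.97 and HLA-E at 94.7. PSMB8 followed at 27.3, TAP1 at 14.8, PSMB9 at 12.1, TAP2 at 8.05 and HLA-F at 0.452 CPM per kb. HLA-B (96.8 and 103) and HLA-E (91.2 and 98.1) overlapped between libraries, and no other neighbours in that order did. In knockout monolayers HLA-B stood at 178 CPM per kb, above HLA-C at 163 and HLA-E at 106, and below B2M at 195, with no overlap between neighbours. In knockout gels HLA-C (126) was again above HLA-B (120) and both were below B2M (177).

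The first comparison asks what the ETV knockout did to these genes in cells on plastic. All 9 rose in knockout monolayers by edgeR's quasi-likelihood test with Benjamini-Hochberg adjustment over all 15568 genes and a threshold of 0.05. Of all genes tested 9.6% rose and 9.6% fell. The median log2 fold change was 0.49 over the members and 0.01 over all genes tested. For each member both knockout libraries lay above both control libraries. That was counted for the members alone and not for all genes tested, so it is a description.

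HLA-B and HLA-C, the classical heavy chains that present peptides to cytotoxic T cells, had the largest changes among the most abundant members (HLA-B, HLA-C, HLA-E and B2M). HLA-B (chromosome 6, 31353875 to 31357179, GRCh38.p14) had 154 and 164 CPM in control monolayers and 279 and 286 CPM in knockout monolayers. That was an increase of 78.5% (log2 0.84 ± 0.050 SE, adjusted p = 5.04e-15). HLA-C (chromosome 6, 31268749 to 31272092) went from 170 and 179 CPM to 255 and 252 CPM, an increase of 45.2% (log2 0.54 ± 0.047, adjusted p = 7.21e-11). These 2 calls were made in every alternative fit, with adjusted p values up to 2.2e-11 for HLA-B and 5.82e-08 for HLA-C.

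HLA-E, a less variable heavy chain that binds leader peptides of other class I chains and is read by NKG2A on natural killer cells, changed little. It had 237 and 255 CPM in control and 276 and 275 CPM in knockout monolayers, an increase of 12.0% (log2 0.16 ± 0.048, adjusted p = 0.0131). Its call was lost without control monolayer library 1 (log2 0.10, adjusted p = 0.282), without knockout monolayer library 1 (adjusted p = 0.11) or 2 (adjusted p = 0.092), with only the libraries compared (adjusted p = 0.0514) and with length and GC trends removed (adjusted p = 0.0847). HLA-F, a nonclassical chain found mostly inside cells, was scarce: 23 and 14 counts in control and 66 and 73 in knockout monolayers. Its level went from 0.926 and 0.869 CPM to 3.99 and 3.98 CPM (log2 2.13 ± 0.28, adjusted p = 3.9e-07), the largest log2 change of the 9 members and the one with the widest interval, 1.57 to 2.7.

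B2M, the light chain that every class I heavy chain needs, lies outside the HLA region on chromosome 15 (44711517 to 44718145). It had 350 and 365 CPM in control and 447 and 482 CPM in knockout monolayers, an increase of 30.0% (log2 0.38 ± 0.047, adjusted p = 1.43e-07). The heavy chain HLA-B thus rose by more than the light chain in the same libraries. The ratio of HLA-B to B2M counts was 0.439 and 0.448 in control and 0.623 and 0.595 in knockout monolayers.

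Both chains of the peptide transporter rose in knockout monolayers. TAP1 (chromosome 6, 32845209 to 32853704) went from 44.2 and 43.6 to 62.2 and 61.0 CPM (log2 0.49 ± 0.065, adjusted p = 6.24e-07). TAP2 (chromosome 6, 32821831 to 32838739) went from 51.2 and 48.2 to 56.9 and 60.8 CPM (log2 0.24 ± 0.068, adjusted p = 0.0107). The TAP2 call was lost without control monolayer library 2 (adjusted p = 0.0986) and without knockout monolayer library 2 (adjusted p = 0.178).

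The immunoproteasome subunits rose as well, with the least agreement between control libraries. PSMB8, the inducible counterpart of PSMB5, had 37.9 and 46.7 CPM in control and 53.3 and 54.9 CPM in knockout monolayers (log2 0.37 ± 0.077, adjusted p = 0.000688). PSMB9, the counterpart of PSMB6, had 9.70 and 12.6 CPM and then 16.6 and 16.5 CPM (log2 0.59 ± 0.12, adjusted p = 0.000289). Control library 1 was the lower for both genes. Without it their log2 changes were 0.20 and 0.38 and neither was called (adjusted p = 0.139 for PSMB8 and 0.0678 for PSMB9).

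**Figure D2:**
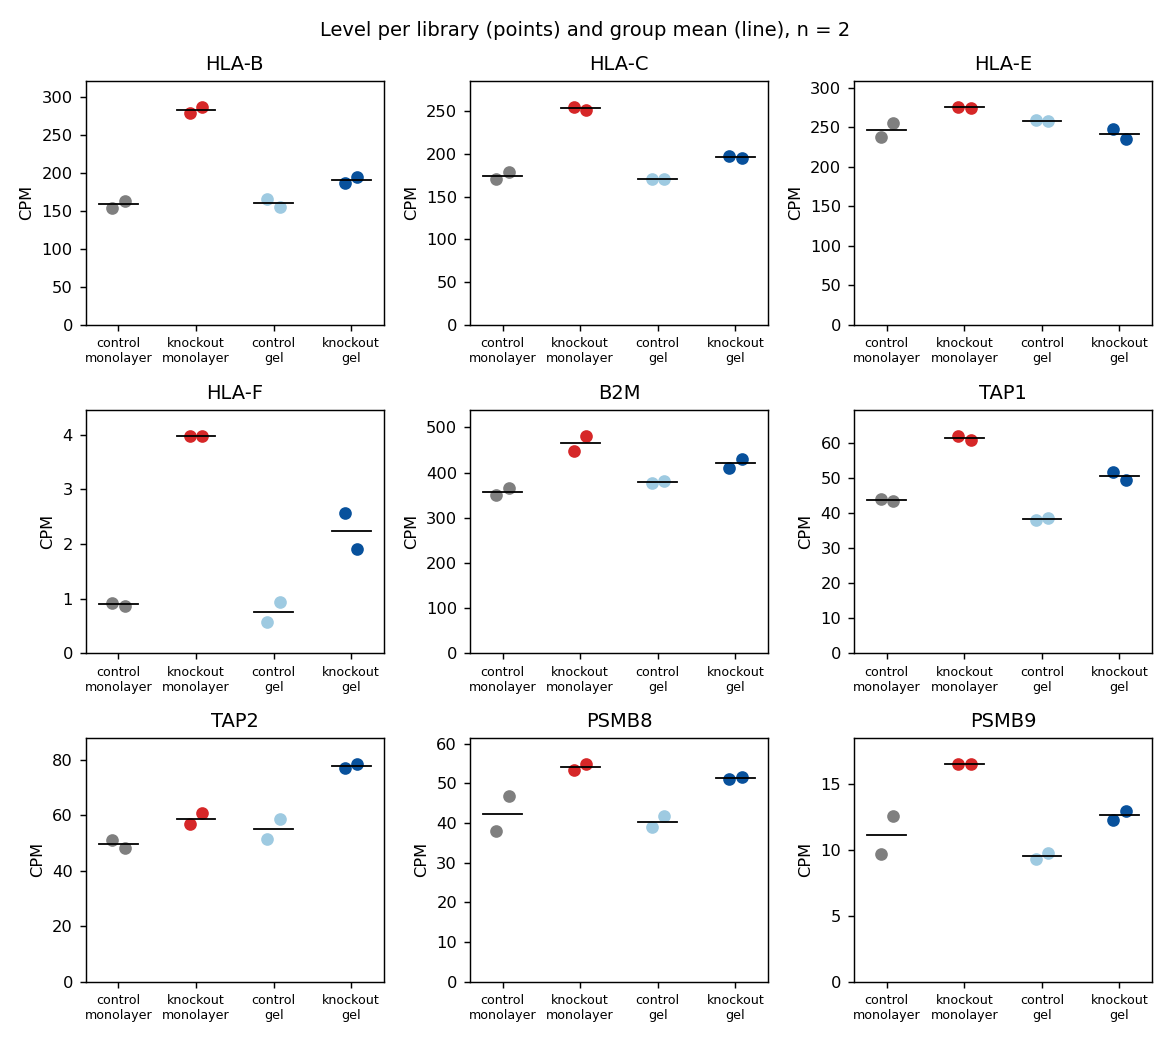
Level of each member in CPM (vertical axes, starting at 0) in the 8 libraries, with points for libraries and lines for the mean of the 2 libraries of a group. Both knockout monolayer libraries lie above both control monolayer libraries in all 9 panels, which was counted for the members alone and not for all genes tested. TAP2 is highest in knockout gels.

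Knockout gels were compared with control gels to ask this of cells in collagen. There 8 of the 9 members rose and HLA-E did not pass, where 11.5% of all genes tested rose and 12.4% fell. The median log2 fold change was 0.35 over the members and -0.00111 over all genes tested. Both knockout libraries lay above both control libraries for 8 members, and below them for HLA-E, which again was counted for the members alone.

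HLA-B and HLA-C had smaller log2 changes here than TAP1 and TAP2, a difference between genes that was not tested. HLA-B had 165 and 155 CPM in control and 186 and 195 CPM in knockout gels, an increase of 18.95% (log2 0.25 ± 0.050, adjusted p = 0.000267). HLA-C went from 170 and 171 to 198 and 195 CPM, an increase of 14.9% (log2 0.20 ± 0.047, adjusted p = 0.00174). Both calls were made in every alternative fit, with adjusted p values up to 0.0336 and 0.0395. HLA-E stood at 259 and 259 CPM in control and at 248 and 236 CPM in knockout gels (log2 -0.10 ± 0.048, adjusted p = 0.143). HLA-F had 12 and 17 counts in control and 47 and 36 counts in knockout gels, or 0.576 and 0.933 CPM against 2.58 and 1.91 CPM (log2 1.58 ± 0.32, adjusted p = 0.000322).

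B2M rose by 10.9% in knockout gels, from 376 and 382 to 410 and 430 CPM (log2 0.15 ± 0.047, adjusted p = 0.018). That call was lost without control gel library 1 (adjusted p = 0.156) or 2 (adjusted p = 0.0969), without knockout gel library 2 (adjusted p = 0.142) and with length and GC trends removed (adjusted p = 0.0688).

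TAP2 showed the largest log2 change in gels after HLA-F. It had 51.5 and 58.5 CPM in control and 76.9 and 78.5 CPM in knockout gels, an increase of 41.5% (log2 0.50 ± 0.066, adjusted p = 3.39e-07). TAP1 rose from 38.2 and 38.7 to 51.9 and 49.4 CPM, by 31.8% (log2 0.40 ± 0.067, adjusted p = 2.64e-05). Both calls were made in every alternative fit.

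PSMB8 rose from 38.9 and 41.8 to 51.1 and 51.7 CPM (log2 0.35 ± 0.077, adjusted p = 0.000957), a change close in size to that on plastic. PSMB9 rose from 9.32 and 9.77 to 12.3 and 13.0 CPM (log2 0.41 ± 0.12, adjusted p = 0.0135). The PSMB9 call was lost by DESeq2 (adjusted p = 0.0614) and without control gel library 1 (adjusted p = 0.117) or 2 (adjusted p = 0.0547) or knockout gel library 2 (adjusted p = 0.0872).

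Whether the effect differed between gels and plastic was tested by the interaction, the log2 effect in gels less the log2 effect on plastic. Culture, digestion and the Cas9 missing from the control monolayer label cannot be told apart in it. It was negative and passed for 4 members, the heavy chains HLA-B, HLA-C and HLA-E and the light chain B2M. Of all genes tested 3.94% had a lower and 2.67% a higher effect in gels. The median difference was -0.23 over the members and -0.02 over all genes tested. For HLA-B it was -0.59 ± 0.070 (adjusted p = 4.08e-07), with an increase of 78.5% on plastic and of 18.95% in gels. For HLA-C it was -0.34 ± 0.067 (adjusted p = 0.000994). Both were called in every alternative, and with length and GC trends removed the HLA-C difference was -0.22 (adjusted p = 0.0231).

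The calls on HLA-E and B2M were less firm. HLA-E differed by -0.26 ± 0.067 (adjusted p = 0.0134) and B2M by -0.23 ± 0.066 (adjusted p = 0.0286). Without control monolayer library 1 the adjusted p values were 0.15 and 0.176, and without knockout monolayer library 2 they were 0.0645 and 0.286. Without control gel library 1 they were 0.0928 and 0.123, without control gel library 2 they were 0.0771 and 0.153, and without knockout gel library 2 they were 0.136 and 0.0532. HLA-E was also lost without knockout monolayer library 1 (0.0887) and with length and GC trends removed (difference -0.17, adjusted p = 0.0952), and B2M without knockout gel library 1 (0.103) and with no filter on low counts (0.0655). The B2M difference was -0.15 without knockout monolayer library 2.

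For the transporter and the immunoproteasome no difference between the effects was detected, and the intervals say how far that reaches. The 95% interval of the difference was -0.28 to 0.10 for TAP1 (adjusted p = 0.669), -0.24 to 0.20 for PSMB8 (adjusted p = 0.954) and -0.53 to 0.16 for PSMB9 (adjusted p = 0.619). TAP2 was the member whose effect was larger in gels, by 0.26 (interval 0.07 to 0.45), with an adjusted p = 0.0994 that passed only with length and GC trends removed (adjusted p = 0.0482). HLA-F, at its low counts, had an interval of -1.48 to 0.37 (adjusted p = 0.556).

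**Figure D3:**
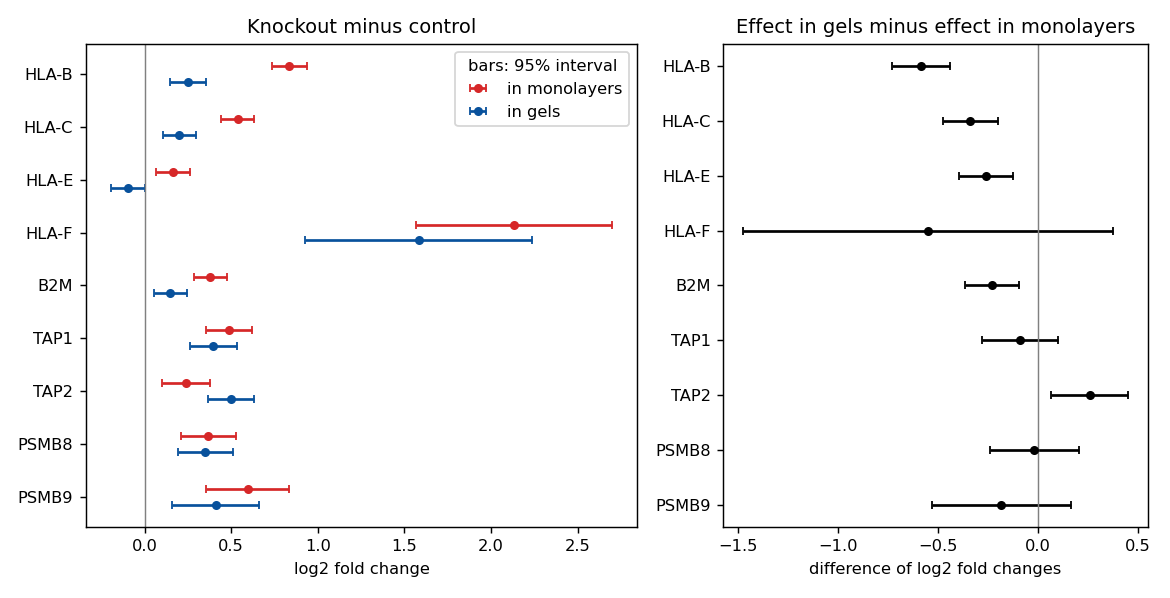
Left, log2 fold changes of knockout against control in monolayers (red) and gels (blue); right, their difference. Bars are 95% intervals from the edgeR fit, which lie wholly below 0 in the right panel for HLA-B, HLA-C, HLA-E and B2M and wholly above 0 for TAP2, whose adjusted p of 0.0994 did not pass.

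The move from plastic to collagen was also compared within control cells. Of the 9 members TAP1 alone was called, lower in gels at 38.2 and 38.7 CPM against 44.2 and 43.6 CPM (log2 -0.19 ± 0.068, adjusted p = 0.0323), while 16% of all genes tested rose and 10.7% fell. That call was lost by DESeq2 (adjusted p = 0.0837), with no filter on low counts (0.0508), and without control monolayer library 1 (0.126) or 2 (0.0692) or control gel library 1 (0.177) or 2 (0.115). PSMB9, at -0.20 (95% interval -0.45 to 0.05, adjusted p = 0.246), was called only without control monolayer library 1 (log2 -0.42, adjusted p = 0.0457). HLA-B and HLA-C had log2 differences of 0.02 (95% interval -0.09 to 0.12) and -0.03 (-0.13 to 0.07), and B2M 0.08 (-0.01 to 0.18). TAP2 had both gel libraries above both monolayer libraries, with a log2 difference of 0.14 (95% interval 0.0029 to 0.28) that did not pass (adjusted p = 0.123). The interval of HLA-F, at -0.28, ran from -1.05 to 0.49. HLA-E stood at 0.07 (-0.02 to 0.17) and PSMB8 at -0.06 (-0.22 to 0.10). The median was -0.03 over the members and 0.01 over all genes tested.

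In knockout cells 7 members were lower and 1 was higher in gels than on plastic, where 17.9% of all genes tested fell and 20.1% rose. The median was -0.28 over the members and -0.01 over all genes tested. This comparison shares its libraries with the comparisons of knockout and control, and each set of values is given for itself. HLA-B fell by 32.6% (log2 -0.57 ± 0.049, adjusted p = 3.45e-11), from 279 and 286 to 186 and 195 CPM. HLA-C fell by 22.5% (log2 -0.37, adjusted p = 1.31e-07), TAP1 by 17.8% (log2 -0.28, adjusted p = 0.000751) and HLA-E by 12.1% (log2 -0.19, adjusted p = 0.00214). PSMB9 (log2 -0.38, adjusted p = 0.00863), HLA-F (log2 -0.83, adjusted p = 0.00614) and B2M (log2 -0.15, adjusted p = 0.0136) also fell.

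TAP2 went the other way in knockout cells, from 56.9 and 60.8 CPM on plastic to 76.9 and 78.5 CPM in gels (log2 0.40 ± 0.066, adjusted p = 1.03e-05). PSMB8 had a log2 difference of -0.08 (95% interval -0.23 to 0.08, adjusted p = 0.46). The calls on B2M were lost without knockout monolayer library 2 (log2 -0.08, adjusted p = 0.289) and knockout gel library 1 (adjusted p = 0.135). HLA-E lost its call without knockout gel library 2 (adjusted p = 0.0545), as did HLA-F (adjusted p = 0.0979), and PSMB9 without knockout gel library 1 (adjusted p = 0.0551). By DESeq2 the adjusted p values of HLA-F and PSMB9 were 0.081 and 0.0617.

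Ratios of counts within a library need no scaling between libraries and show which members moved apart. HLA-B to HLA-E was 0.647 and 0.641 in control and 1.01 and 1.04 in knockout monolayers, and 0.638 and 0.599 in control and 0.750 and 0.826 in knockout gels. In both cultures the knockout libraries were above the control libraries. The ratio of HLA-B to B2M differed less in gels, at 0.439 and 0.406 in control and 0.454 and 0.453 in knockout libraries. TAP1 to TAP2 was 0.864 and 0.904 in control and 1.09 and 1.00 in knockout monolayers. In gels that ratio was 0.742 and 0.661 in control and 0.675 and 0.630 in knockout libraries, which overlapped, and all 4 gel libraries were below the 4 monolayer libraries.

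Each inducible proteasome subunit was also set against the constitutive subunit it replaces. PSMB8 to PSMB5 was 0.336 and 0.415 in control and 0.454 and 0.458 in knockout monolayers, then 0.346 and 0.350 in control and 0.369 and 0.382 in knockout gels. PSMB9 to PSMB6 was 0.0829 and 0.105 and then 0.125 and 0.126 on plastic, and 0.0648 and 0.0738 and then 0.0763 and 0.0824 in gels. PSMB10, the third inducible subunit, to PSMB7 was 0.0547 and 0.0591 and then 0.0780 and 0.0899 on plastic, and 0.0627 and 0.0519 and then 0.0633 and 0.0647 in gels. All 3 ratios were higher in both knockout libraries than in both control libraries in each culture. The differences of the group means were smaller in gels, which was not tested.

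**Figure D4:**
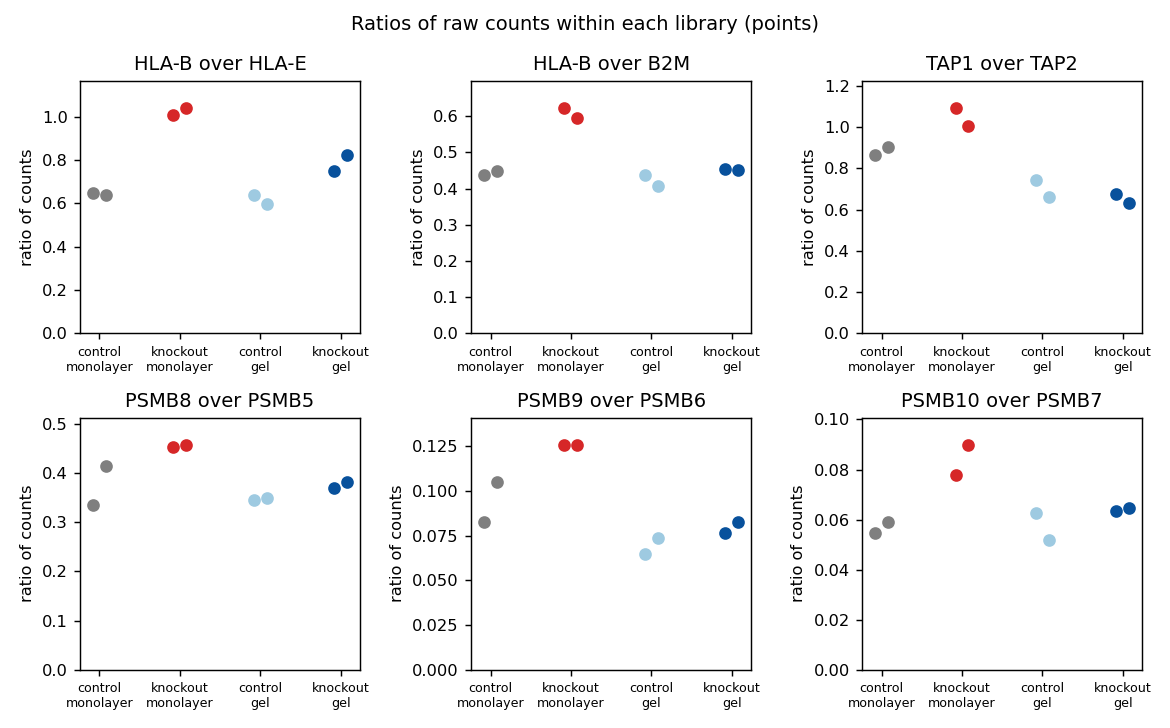
Ratios of raw counts within each of the 8 libraries (points), on axes that start at 0. HLA-B over HLA-E is highest in knockout monolayers (1.01 and 1.04), and TAP1 over TAP2 is lower in all gel libraries than in any monolayer library.

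The other genes of antigen presentation were taken from lists chosen for their roles. Beside the counts of each list below stand the shares of all genes tested. On plastic 9.6% rose and 9.6% fell, and in gels 11.5% rose and 12.4% fell. Of 10 genes of peptide loading and trimming, 3 rose and 1 fell in knockout monolayers (median log2 0.14) and 2 rose in gels (median 0.09). On plastic 1 gene rose without control monolayer library 1, without either knockout monolayer library, with no filter on low counts, or with only the libraries compared. In gels 1 rose without control gel library 2. TAPBP, which encodes tapasin, rose on plastic (log2 0.28 ± 0.046, adjusted p = 2.39e-05) and had a log2 difference of 0.06 in gels (adjusted p = 0.418). The interaction for TAPBP was -0.22 (adjusted p = 0.0326) and was called in 7 of 18 alternatives. The trimming peptidase ERAP1 rose in gels (log2 0.25, adjusted p = 0.00242) and had 0.15 on plastic (adjusted p = 0.106), while ERAP2 had 0.16 and 0.09 (adjusted p = 0.447 and 0.677). TPP2, a cytosolic peptidase, fell on plastic by 0.25 on the log2 scale (adjusted p = 0.000843).

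All 4 other immunoproteasome and activator genes rose in knockout monolayers and 3 of 4 in knockout gels, with medians of 0.25 and 0.24. PSMB10 rose from 10.1 and 11.5 to 16.4 and 18.5 CPM on plastic (log2 0.70 ± 0.12, adjusted p = 2.7e-05) and from 13.2 and 10.5 to 15.8 and 15.7 CPM in gels (log2 0.40, adjusted p = 0.01). Without control gel library 2 the list had 1 call in gels and PSMB10 was not called. PSME2, a subunit of the proteasome activator PA28, rose in both (log2 0.27 and 0.31, adjusted p = 0.000477 and 4.21e-05). The constitutive catalytic subunits rose too: 1 of 3 on plastic and 3 of 3 in gels (medians 0.13 and 0.24). PSMB5, PSMB6 and PSMB7 changed by 0.24, 0.21 and 0.25 in gels (adjusted p = 0.000643, 0.00226 and 0.000115), and the PSMB6 call on plastic (log2 0.15, adjusted p = 0.0388) was made in 6 of 19 alternatives. Of 10 tested other subunits of the 20S core 4 rose on plastic and 7 in gels (medians 0.10 and 0.15), and without control monolayer library 1 the first count was 1. Without control gel library 2, or without knockout gel library 2, the second was 3.

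Among 14 regulators of class I transcription 6 rose in knockout monolayers and 3 in knockout gels (medians 0.17 and 0.10), against 9.6% and 11.5% of all genes tested. Without control monolayer library 1 the first count was 1, and without control gel library 2 the second was 2. IRF1, an interferon-induced factor that binds the interferon response element, had 24.3 and 23.3 CPM in control and 46.6 and 43.9 CPM in knockout monolayers (log2 0.92 ± 0.080, adjusted p = 6.55e-11). In gels it had 36.7 and 31.2 CPM in control and 42.6 and 42.3 CPM in knockout libraries (log2 0.32 ± 0.077, adjusted p = 0.00215, not called without control gel library 2). Its interaction was -0.60 ± 0.11 (adjusted p = 0.000434) and was called in all 18 alternatives. Unlike HLA-B, IRF1 was also higher in control gels than in control monolayers (log2 0.51, adjusted p = 1.24e-05), and the difference between those genes was not tested.

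NLRC5, the class I transactivator, had 25.2 and 27.4 CPM in control and 34.4 and 32.0 CPM in knockout monolayers (log2 0.34 ± 0.080, adjusted p = 0.00203). That call was lost without control or knockout monolayer library 1. In gels NLRC5 had a log2 difference of 0.11 (adjusted p = 0.351), and its interaction of -0.23 did not pass (adjusted p = 0.249).

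Of 13 interferon receptor and signalling genes 2 rose and 1 fell on plastic and 1 rose and 1 fell in gels (medians 0.12 and 0.02). The shares that rose, 15.4% and 7.69%, were near those of all genes tested, 9.6% and 11.5%. In gels none rose by DESeq2 or limma-voom, with either change of the filter, with only the libraries compared, or without control gel library 1, knockout gel library 1 or knockout gel library 2, and up to 3 fell across the alternatives. IFNAR1, a chain of the type I interferon receptor, rose on plastic by 0.31 (adjusted p = 0.000682, not called without control monolayer library 1), where without that library none of the 13 was called higher. The cytokine signalling inhibitor SOCS3 fell in both (log2 -0.21 and -0.44, adjusted p = 0.0267 and 8.74e-06), and its plastic call was lost by DESeq2 and without control or knockout monolayer library 2. SOCS1, of the same family, went the other way in both (log2 0.79 and 0.83, adjusted p = 0.0283 and 0.044), at 16 to 59 counts per library. SOCS1 was the 1 gene of this list called higher in gels, a call lost in the fits named above where none rose. Of 24 tested interferon-stimulated genes outside antigen presentation 12 rose on plastic and 10 in gels and none fell (medians 0.34 and 0.16). OASL rose by 2.09 and 1.88 on the log2 scale and IFIT1 by 1.00 and 1.08 (adjusted p = 1.25e-14, 3.64e-14, 2.38e-09 and 5.58e-10). Their interactions were -0.21 for OASL (adjusted p = 0.576) and 0.09 for IFIT1, and 1 of the 24 genes, GBP2, passed there. GBP2 was called there in 13 of 18 alternatives, and not by DESeq2 or without control monolayer library 1, knockout monolayer library 2, control gel library 1 or knockout gel library 2.

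Class II genes and class I-like molecules were counted in the same way. Of 10 tested class II genes none rose in knockout cells, 1 fell on plastic and 6 fell in gels (medians -0.30 and -0.49), and by DESeq2 2 fell in gels. Of all genes tested 9.6% fell on plastic and 12.4% in gels. Several class II genes had few counts per library: 3 to 23 for HLA-DPB1, 3 to 14 for HLA-DRB5, 6 to 13 for HLA-DOB and 10 to 33 for HLA-DPA1. The medians therefore rest in part on genes of low depth. CIITA, the class II transactivator, fell by 0.40 and 0.60 on the log2 scale (adjusted p = 0.0228 and 0.0008), and the call on plastic was made in 13 of 19 alternatives. CD74, the invariant chain, had 96.0 and 104 CPM in control and 102 and 104 CPM in knockout monolayers. In gels CD74 fell from 123 and 117 to 87.8 and 92.7 CPM (log2 -0.41, adjusted p = 7.48e-07), with an interaction of -0.45 (adjusted p = 0.000249) that was called in all 18 alternatives.

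Of 9 tested class I-like molecules and NKG2D ligands 1 rose on plastic, and 1 rose and 2 fell in gels (medians 0.06 and -0.03), while of all genes tested 9.6% rose on plastic and 11.5% rose and 12.4% fell in gels. The difference between these molecules and the members was not tested. ULBP2, a stress-induced ligand of NKG2D, rose by 0.47 in both cultures (adjusted p = 0.000786 and 0.000537). HFE and FCGRT, which encode class I-like proteins that pair with beta-2 microglobulin, fell in gels (log2 -0.58 and -0.50, adjusted p = 1.22e-05 and 0.000789). Of 7 tested ligands of T-cell and NK-cell receptors none rose, 2 fell on plastic and 3 fell in gels (medians -0.12 and -0.21). On plastic 1 fell by DESeq2 or without either control monolayer library, and in gels 1 fell without control gel library 1 or with length and GC trends removed. CD274, which encodes PD-L1, fell on plastic from 32.6 and 35.1 to 26.9 and 24.7 CPM (log2 -0.39, adjusted p = 0.000549) and had a log2 difference of 0.07 in gels. CD47, the signal that restrains phagocytes, fell by 0.17 and 0.27 (adjusted p = 0.0277 and 0.000326), and its plastic call was made in 15 of 19 alternatives. In bulk RNA a change in a few cells and a smaller change in all cells cannot be told apart.

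**Figure D5:**
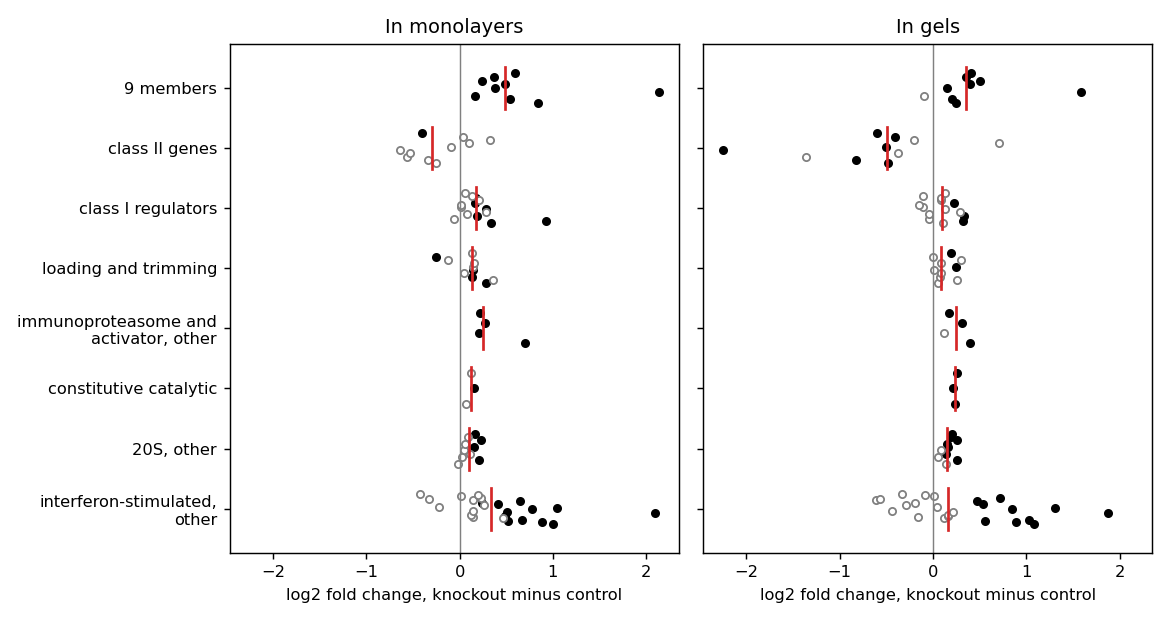
Log2 fold changes of knockout against control for the 9 members and 7 lists, in monolayers (left) and gels (right); each point is a gene, filled where its adjusted p was under 0.05, and red lines are list medians. The members lie to the right of 0 except HLA-E in gels. Class II genes, several of them with few counts, have the lowest medians, at -0.30 and -0.49.

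The members followed each other to different degrees across the 8 libraries. The nearest pair by log2 CPM was HLA-B and HLA-C, with a Pearson correlation of 0.991. HLA-F was nearest to TAP1 (0.968), B2M to HLA-B (0.929), PSMB8 to PSMB9 (0.932) and PSMB9 to HLA-C (0.942). HLA-E was nearest to HLA-B (0.672) and TAP2 to PSMB8 (0.574), the loosest ties. Outside the members and lists, the genes nearest to the mean profile of the members included JARID2 (0.987), FBXO32 (0.976), SLC31A2 (0.974) and TPST2 (0.973), of 10672 candidates. With 8 libraries in 4 groups these values mostly restate the group means and are descriptions.

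Near-identical and overlapping genes limit some of these values. Of 50-base stretches in GENCODE v29 exons, 1.61 to 6.34% of those of the 4 HLA genes also occur in other genes and none of those of B2M and PSMB8 do. TAP2 shares 32.7% with a read-through gene model, so how reads were divided between them could alter its level. The antisense PSMB8-AS1 covers 456 exonic bases of TAP1 and 425 of PSMB8, and lies on the strand of PSMB9 with 139 bases. Its own level was 2.13 and 1.99 CPM in control and 4.71 and 4.69 CPM in knockout monolayers, which rose with the members (log2 1.18, adjusted p = 0.000143), and 2.06 and 1.70 against 2.41 and 3.40 CPM in gels. Opposite HLA-F lie HLA-F-AS1, over 257 of its exonic bases, the pseudogene RPL23AP1, also over 257, and an unnamed pseudogene model over 539 (27.2% of its exonic bases). HLA-F-AS1 had 7 to 15 counts in each library, and both pseudogenes had 0 counts in all 8. An antisense pseudogene model covers 372 exonic bases of HLA-B. The kit marks strand, but the sources used here do not give the strand setting of the count, so the part of these overlaps in the results was not tested.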

How the data were processed

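The authors deposited raw read counts by gene symbol for 8 libraries, made from poly(A) RNA with a stranded kit per the labels' protocols. The authors used FastQC 0.11.9, STAR 2.7.9a on hg38, featureCounts and R 4.1.1, per the submitters' processing notes. The sources used here do not give the featureCounts version, annotation, strand setting or handling of reads with several matches, nor which of the labelled collagen concentrations each gel had.

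Genes passing filterByExpr (minimum count 10) were kept: 15568 of 61228. All 9 members were above the filter's level of 0.533 CPM in all 8 libraries. TMM-scaled counts were fitted with edgeR 4.0.16 (R 4.3.3, robust quasi-likelihood F-test, two-sided) as 4 group means over 8 libraries, with 4 residual degrees of freedom, 5 contrasts and Benjamini-Hochberg adjustment over all genes tested. The biological coefficient of variation was 4.03%. The SE of a log2 fold change is its size over the root of F. P-values borrow spread across genes. Alternatives were other scalings, DESeq2 1.42.0, limma-voom (3.58.1), other filters, only the libraries compared, a replicate block, each library left out, and offsets that remove trends with gene length and GC content (mgcv 1.9.3). Levels per kb use GENCODE v29 exon lengths. The fit was run on simulated data for the knockout contrast in monolayers alone, with the same spread for every gene. The other comparisons were not checked in that way.

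The members and the lists were chosen with earlier results of these data known. The rule for named genes took all members, IRF1, NLRC5, PSMB10, PSMB5, PSMB6, PSMB7, TAPBP, ERAP1 and ERAP2, and from other lists up to 3 genes with the smallest adjusted p in a comparison. GBP2 was named after its values were seen. Some genes that the rule took are not reported here.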

Additional observations from a re-analysis of the deposited data

Results flagged for a closer look

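The knockout effect differed between monolayers and gels, by the test of the difference itself, for 4 of the 9 members. The log2 effect in gels minus that in monolayers was -0.59 for HLA-B, -0.34 for HLA-C, -0.26 for HLA-E and -0.23 for B2M (edgeR quasi-likelihood test, adjusted p = 4.08e-07, 0.000994, 0.0134 and 0.0286). Of all genes tested 3.94% had a lower effect in gels. The label of the control gels names Cas9 and that of the control monolayers does not, so an effect of culture and one of Cas9 cannot be told apart here.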

How the results depend on the processing

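Of 841 values for 45 member results under up to 19 alternatives, 773 kept direction and side of the threshold, 44 lost a call, 2 gained one and 22 changed sign, each for a gene that was not called. A DESeq2 adjusted p given as missing counted as no lost call, and HLA-F gave no value under the stricter filter. The number of members called ran from 6 to 9 of 9 for knockout in monolayers, from 6 to 8 in gels, from 0 to 1 for gels in control cells, from 6 to 8 for gels in knockout cells and from 2 to 4 for the interaction. For gels in control cells it was 0 by DESeq2 and 0 with no filter on low counts. Leaving out single libraries gave 0 to 1 there and 2 to 4 for the interaction. Over all genes the calls ran from 1835 to 3547 (2989 reported), 2095 to 4469 (3721), 2072 to 4856 (4158), 4124 to 6449 (5915) and 407 to 1482 (1028), lowest by DESeq2 for knockout in monolayers and for gels in knockout cells, and without control gel library 1 for the others.

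For gels in control cells HLA-B (0.0163) changed sign with upper-quartile factors (-0.0300), library size alone (-0.0677), the stricter filter (-0.0193), only the libraries compared (-0.00429) and length and GC trends removed (-0.0444), and HLA-E was -0.0106 with library size alone. Leaving out single libraries gave -0.0490 to 0.0606 for HLA-B, -0.0857 to 0.00438 for HLA-C, -0.641 to 0.0473 for HLA-F and -0.233 to 0.0873 for PSMB8. In the interaction it gave -0.163 to 0.166 for PSMB8 and -0.358 to 0.0461 for PSMB9. There PSMB8 was 6.7e-05 with library size alone, 0.000499 by DESeq2 and 0.0524 with length and GC trends removed, and TAP1 was 0.0369 with those trends removed. The causes were not tested.

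The replicate block gave 9, 8, 1, 8 and 4 called members in the 5 comparisons and 3187, 3937, 4435, 6108 and 1203 genes. The labels do not say that equal numbers pair libraries, and replicate deviations correlated at -0.212 to 0.279 between groups. With the control gel numbers crossed, added after seeing the data, the counts of members were 9, 8, 1, 8 and 4, and of genes 3547, 4318, 4856, 6449 and 1482. At 12 to 73 counts, HLA-F is the member whose depth limits it most.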
